A study of Mus musculus with 4 samples.

Results

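The genes described here encode the machinery that builds and forms the spliceosome, the RNA-protein machine that removes introns. They were chosen by name as 40 gene symbols out of 17762 genes listed in at least 1 library, and fall into 8 classes by role. These are the SMN complex, the Sm proteins, the factors that methylate Sm proteins, proteins of the U1 and U2 particles, Lsm proteins, proteins of the tri-snRNP, factors of the branch point and 3′ splice site, and coilin. Every member was listed in all 4 libraries and all 40 passed the filter on low counts, so none entered the test through 1 group alone.

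Polyadenylated RNA of adenomas was sequenced from mice labelled ApcMin Strap KO (2 libraries) and ApcMin Strap WT (2 libraries). All 4 libraries came from C57BL/6 mice aged 110 days, and all carry ApcMin, a mutant allele of the tumour suppressor gene Apc that gives rise to intestinal tumours. The design text calls the targeted line StrapIEKO, and the deleted exons, the driver of the deletion and the number of animals behind each library were not found in the sources used. P-values therefore measure the spread between these libraries, which may be technical in part.

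Most spliceosomal small nuclear RNAs carry a ring of Sm proteins. The SMN complex loads that ring in the cytoplasm, after Prmt5 and its partners have methylated arginines of some Sm proteins, and U6 carries a ring of Lsm proteins instead. Strap, also known as Unrip, is itself a component of the SMN complex, known from human cells to bind it through Gemin7. The comparison asks how transcripts of this machinery stood in adenomas in which Strap was targeted.

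Strap checked the labels first. Its level per transcript length was 7.40 and 10.0 FPKM in KO replicates 1 and 2, against 61.3 and 43.8 FPKM in WT replicates 1 and 2. The groups did not overlap, and the log2 fold change was -2.57 (SE 0.26), with an adjusted p of 0.0942 in the edgeR quasi-likelihood test and 8.17e-14 in DESeq2. In this bulk RNA, fewer cells that express a gene and less RNA per cell cannot be told apart.

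Across the whole data set the libraries differed in more than genotype. Total expected counts lay between 14084831 and 15640941. Xist and the Y-linked genes Ddx3y and Eif2s3y split the libraries by replicate number and not by genotype: Xist was at 197 CPM in KO replicate 1 and 968 CPM in WT replicate 1, and at most 0.954 CPM in both replicates 2. Small-intestinal markers were abundant in every library, with a summed 8851 to 20950 CPM for 8 genes. The 8 colon markers summed to 262 to 453 CPM, and Hoxb13 and Hoxd13 were at 0 in KO replicates 1 and 2 and in WT replicate 1, although the tissue is labelled colon adenoma. Summed proliferation markers (10 genes) stood at 1273 and 1104 CPM in KO, against 733 and 1276 CPM in WT, and endothelial markers (6 genes, with Emcn at 0 outside WT replicate 1 and Cldn5 not listed) at 1.23 and 2.25 CPM in KO, against 41.3 and 1.82 CPM in WT. T and NK cell markers (8 genes, Trac not listed) summed to 29.7 and 274 CPM in KO, against 50.1 and 34.6 CPM in WT. WT replicate 1 and KO replicate 2 thus stood apart in cell markers. WT replicate 2 stood apart in markers of gut region. It had the lowest small-intestinal and colon sums (8851 and 262 CPM) and no colon marker at 0. The part of these 3 libraries in the results below was not tested.

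No member passed the test between KO and WT. The edgeR quasi-likelihood test, adjusted by Benjamini-Hochberg over all 12769 genes tested, called 0 of 40 members in either direction, and DESeq2 called 0 as well. The background was 0.00783% of all genes called higher and 0% called lower in edgeR, and 1.82% higher and 3.32% lower in DESeq2. At an unadjusted p under 0.05, 4 members were higher and 0 lower, against 7.08% of all genes higher and 8.69% lower. The 4 members were Snrpg, Lsm3, Lsm7 and Lsm2, which all encode proteins of the Sm and Lsm rings, and 4 of 40 is 10.0%, near the background.

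The direction of the estimates was uneven. Of the 40 members 34 had a log2 fold change above 0 and 6 below it, while 50.3% of all tested genes were above 0 and 49.7% below. The median over the members was 0.33 (quartiles 0.09 and 0.54), against 0.00 over all tested genes (quartiles -0.38 and 0.33). In 18 members (45.0%) each KO library exceeded each WT library, an order that held for 25.5% of all tested genes. In 2 members, Gemin4 and Sf3b1, each KO library was under each WT library, an order found in 24.6% of all tested genes. The other 20 overlapped between the groups.

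**Figure D1:**
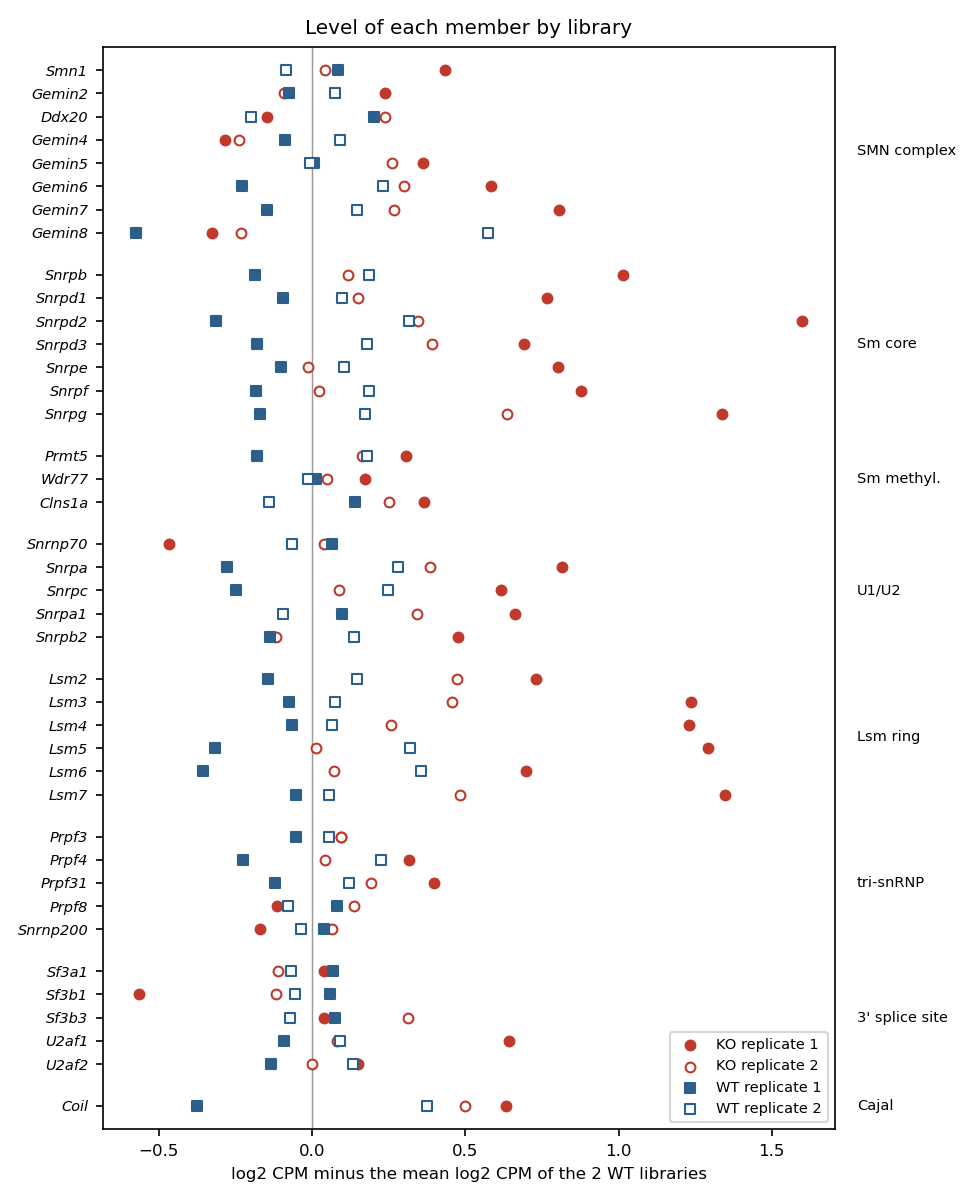
Level of each of the 40 members in each library, as log2 CPM minus the mean log2 CPM of the 2 WT libraries. Filled red circles are KO replicate 1, open red circles KO replicate 2, filled blue squares WT replicate 1 and open blue squares WT replicate 2. KO replicate 1 was the highest library in 31 of 40 members and WT replicate 1 the lowest in 26.

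The libraries contributed unequally. KO replicate 1 was the highest of the 4 libraries in 31 members (77.5%), against 32.9% of all tested genes, and WT replicate 1 was the lowest in 26 (65.0%), against 29.1%. Between the libraries numbered 1, 32 members were higher in KO, with a median log2 ratio of 0.59, and 49.8% of all tested genes were higher there. Between the libraries numbered 2, 24 members were higher in KO, with a median of 0.07, and 51.2% of all tested genes were higher there. Without KO replicate 1 the median of the members was 0.13, with 0 members higher at an unadjusted p under 0.05 (2.66% of all genes), and without KO replicate 2 it was 0.52, with 10 (7.72% of all genes). The median was 0.24 without WT replicate 1, again with 0 members at that p (3.76% of all genes), and 0.44 without WT replicate 2, with 6 (6.37% of all genes).

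The estimates also followed the length of the transcripts. Sm and Lsm proteins are small and most have short messages, though Snrpb (1121 bases) and Lsm6 (3779 bases) were longer. In all, 14 members had a transcript under 1000 bases, Gemin7, Snrpc and U2af1 among them. All 14 had a log2 fold change above 0, from 0.35 to 1.07 with a median of 0.58. The median over all 975 tested genes of that length was 0.43, and 45.6% of them had each KO library above each WT library, as had 9 of the 14 members. For transcripts of 4000 bases and over the median was 0.01 over 7 members and -0.21 over 3558 genes. Across the members the rank correlation of length with log2 fold change was -0.76 (n = 40 genes measured in the same 4 libraries). It was -0.77 for the ratio of KO replicate 1 to WT replicate 1 and -0.07 for that of KO replicate 2 to WT replicate 2. In KO replicate 1 the median of all genes under 1000 bases stood 0.45 log2 units above the 4-library mean, and in KO replicate 2 at -0.05. The WT replicates stood lower, at -0.27 and -0.15. With the length trend removed from each library, an alternative chosen after seeing the data, the median of the members was 0.16, with 29 above 0 (48.7% of all genes) and 1, Gemin5, higher at an unadjusted p under 0.05 (6.98% of all genes). RNA integrity values are not used here, and what set the length trend was not tested.

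**Figure D2:**
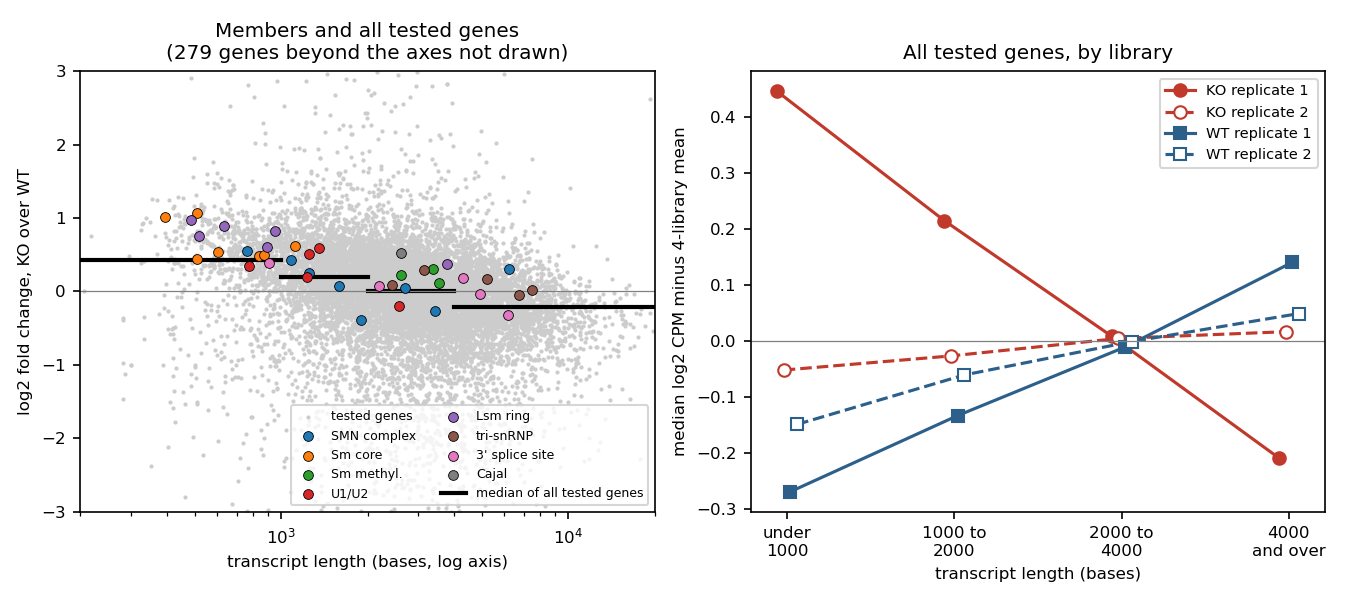
Left, log2 fold change of KO over WT against transcript length in bases on a log axis, for all tested genes (grey), the 40 members (coloured by class) and the median of all tested genes in each of 4 length ranges (black bars). Right, median over all tested genes of log2 CPM minus the 4-library mean, by length range, in each library. KO replicate 1 runs from 0.45 for genes under 1000 bases to -0.21 for genes of 4000 bases and over.

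The SMN complex itself showed no member past the threshold. The 8 genes other than Strap had a median log2 fold change of 0.16, with 6 above 0 and 2 below, and their summed level was 158 and 141 CPM in KO, against 130 and 133 CPM in WT. Smn1, the survival motor neuron gene that forms the scaffold of the complex, lies on chromosome 13 from 100123205 to 100137699 in GRCm38.p6, the assembly behind mm10. Smn1 had 476 and 364 expected counts in KO and 398 and 350 in WT, or 32.5 and 24.8 CPM in KO against 25.5 and 22.7 CPM in WT. The groups overlapped, and the log2 fold change was 0.25 (SE 0.24, adjusted p = 0.646, edgeR). The estimate for Smn1 was thus 1.19-fold, beside 0.169-fold for Strap.

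The Gemin genes spread to both sides. Gemin7, whose product forms a pair with that of Gemin6, stood at 27.3 and 18.8 CPM in KO, against 14.1 and 17.3 CPM in WT (log2 fold change 0.55, SE 0.30, adjusted p = 0.418, edgeR). Gemin6 was at 10.0 and 8.25 CPM in KO and 5.71 and 7.85 CPM in WT (0.43, SE 0.38). In both genes KO replicate 2 lay close above WT replicate 2 and KO did not overlap with WT. Gemin5, which encodes the subunit that recognises small nuclear RNAs, was at 39.1 and 36.5 CPM in KO and 30.6 and 30.3 CPM in WT, with an estimate of 0.31 (SE 0.19, adjusted p = 0.474, edgeR). With a transcript of 6222 bases Gemin5 was the member of 4000 bases and over with the highest estimate, and its ratio was similar in both replicate numbers, 0.35 and 0.27 on the log2 scale. With the length trend removed its estimate was 0.53. Gemin4, which pairs with the helicase Ddx20, had no overlap, with KO the lower, at 19.3 and 19.9 CPM in KO against 22.1 and 25.0 CPM in WT (-0.26, SE 0.23, adjusted p = 0.608, edgeR). Ddx20 (0.04), Gemin2, whose product binds the Sm pentamer (0.08), and Gemin8 (-0.39, SE 0.63) overlapped between the groups. Gemin8, which links Gemin6 and Gemin7 to the rest of the complex, was the member with the lowest level per length, at 0.99 and 1.23 FPKM in KO and 0.95 and 2.03 FPKM in WT.

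All 7 Sm genes, which encode the ring around each Sm-class small nuclear RNA, had estimates above 0, with a median log2 fold change of 0.54 and a range of 0.45 to 1.07. None passed the threshold. Summed, they stood at 632 and 362 CPM in KO, against 278 and 354 CPM in WT, so KO replicate 2 lay level with WT replicate 2. KO replicate 1 was highest and WT replicate 1 lowest in each of the 7. The median log2 ratio was 1.06 between the libraries numbered 1 and 0.03 between those numbered 2. Without KO replicate 1 the class median was 0.15, with Snrpb at 0.11, Snrpf at 0.019 and Snrpe at -0.0091, and without KO replicate 2 it was 0.86.

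Snrpg, which encodes the smallest ring member SmG, had the smallest p of the class and of all 40 members. It lies on chromosome 6 from 86371540 to 86378902 in GRCm38.p6 and had 898 and 554 expected counts in KO against 336 and 421 in WT. Its level was 61.3 and 37.8 CPM in KO, against 21.6 and 27.3 CPM in WT, with no overlap and with both KO libraries higher within each replicate number. The log2 fold change was 1.02 (SE 0.30, a 2.03-fold difference), with an adjusted p of 0.244 in edgeR and 0.0957 in DESeq2. With the length trend removed it was 0.40, and without KO replicate 1 it was 0.63. Snrpd2, the SmD2 gene, had the highest estimate of all members, 1.07 (SE 0.45, adjusted p = 0.326, edgeR), and 0.32 without KO replicate 1. It was at 111 and 46.7 CPM in KO, against 29.6 and 45.7 CPM in WT, so the libraries numbered 2 differed by 0.03 on the log2 scale. Snrpd3, which encodes SmD3, stood at 67.6 and 54.9 CPM in KO and 37.0 and 47.4 CPM in WT (0.54, SE 0.23, adjusted p = 0.328, edgeR), with no overlap. Snrpb, which encodes the SmB proteins, was at 169 and 90.6 CPM in KO and 73.5 and 95.2 CPM in WT (0.62, SE 0.34, adjusted p = 0.422, edgeR), and here KO replicate 2 lay below WT replicate 2. Snrpd1 (0.49), Snrpe (0.45) and Snrpf (0.50) had estimates in the same range, and of these Snrpd1 alone had no overlap between the groups.

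The ring proteins are needed in equal numbers. The spread of their transcripts per length in each library is given without a comparison set, and whether transcript levels are matched was not tested. The highest Sm gene exceeded the lowest by 2.70-fold in KO replicate 1 and 2.15-fold in KO replicate 2, and by 1.89-fold in WT replicate 1 and 1.78-fold in WT replicate 2, on the FPKM scale. Snrpd1 or Snrpf was the lowest in every library. The highest was Snrpd2 at 233 FPKM in KO replicate 1, Snrpg at 121 FPKM in KO replicate 2, Snrpe at 88.6 FPKM in WT replicate 1 and Snrpd2 at 105 FPKM in WT replicate 2. Some Sm genes have near-identical processed copies in mammalian genomes, and the Snrpb and Snrpn products are near-identical, so the authors' estimated counts of these genes are uncertain where reads fit more than 1 place.

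None of the 3 Sm methylation genes passed the threshold. Prmt5, the arginine methyltransferase that modifies SmB, SmD1 and SmD3, was at 78.1 and 70.7 CPM in KO, against 55.8 and 71.5 CPM in WT (0.22, SE 0.21, adjusted p = 0.634, edgeR). WT replicate 1 was the low library and the other 3 lay together. Wdr77, the Prmt5 partner also called MEP50, stood at 64.8 and 59.5 CPM in KO and 58.0 and 57.0 CPM in WT (0.11, SE 0.18). Clns1a, which encodes the chaperone pICln that holds Sm proteins before assembly, was at 59.6 and 55.1 CPM in KO and 51.0 and 42.0 CPM in WT (0.30, SE 0.20, adjusted p = 0.503, edgeR). For Wdr77 and Clns1a the groups did not overlap, with KO the higher. The class summed to 202.5 and 185 CPM in KO and 165 and 170.5 CPM in WT.

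**Figure D3:**
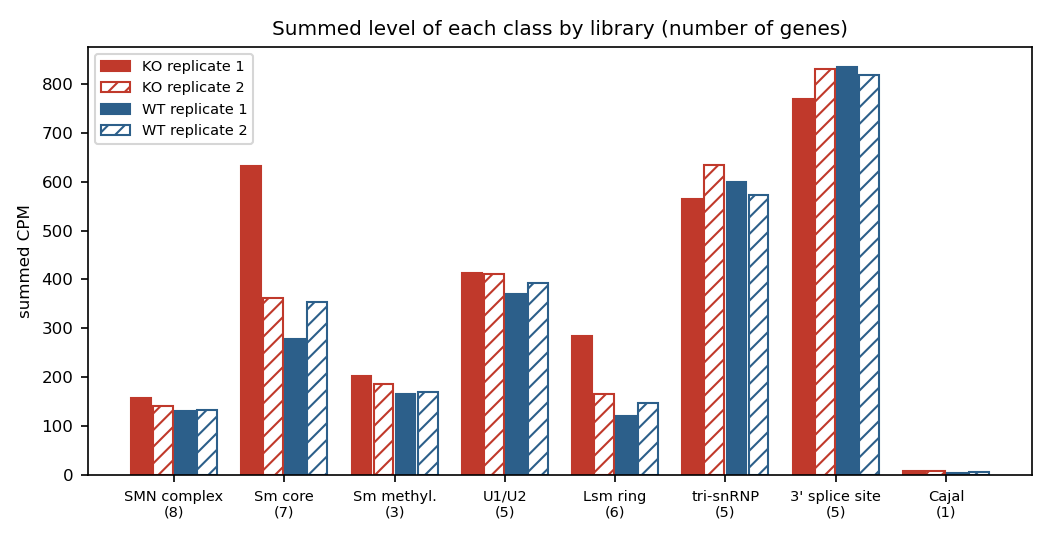
Summed CPM of the members of each class in each library, with the number of genes in brackets. Filled red bars are KO replicate 1, hatched red KO replicate 2, filled blue WT replicate 1 and hatched blue WT replicate 2. KO replicate 1 has the tallest bar in every class except the tri-snRNP and 3′ splice site. Its Sm core and Lsm ring bars reach 632 and 283 CPM.

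The 6 Lsm genes had the highest class median, 0.79, with all 6 above 0 (0.38 to 0.98), and 3 of the 4 members at an unadjusted p under 0.05. Lsm2 to Lsm7 proteins serve in the U6 ring of the nucleus and in the cytoplasmic ring of mRNA decay. Summed, they stood at 283 and 166 CPM in KO, against 121 and 146 CPM in WT, so here the groups did not overlap. The median log2 ratio was 1.30 between the libraries numbered 1 and 0.26 between those numbered 2. Without KO replicate 1 the class median was 0.36, and without KO replicate 2 it was 1.23. With the length trend removed it was 0.38, the highest of the classes with more than 1 gene.

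Lsm3 was at 52.9 and 30.9 CPM in KO, against 21.4 and 23.7 CPM in WT, and the groups did not overlap. The log2 fold change was 0.90 (SE 0.30), with an adjusted p of 0.27 (0.184 in DESeq2). Lsm7 stood at 38.9 and 21.4 CPM in KO and 14.8 and 15.9 CPM in WT (0.98, SE 0.34, adjusted p = 0.273, edgeR). Lsm2 stood at 39.3 and 32.9 CPM in KO and 21.4 and 26.2 CPM in WT (0.60, SE 0.23, adjusted p = 0.298, edgeR). In all 3 of these genes KO replicate 2 also lay above both WT libraries. Without KO replicate 1 their estimates were 0.46 for Lsm3, 0.49 for Lsm7 and 0.47 for Lsm2, with adjusted p values from 0.779 to 0.786 in edgeR. Lsm4 (0.82, SE 0.34) had no overlap either, while Lsm5 (0.75, SE 0.53) and Lsm6 (0.38, SE 0.35) overlapped. Lsm5 had few counts, 235 and 97 in KO and 82 and 126 in WT.

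The promoters of Snrpg and Lsm3, which had the smallest p of their rings, are shown with that of Snrpe (log2 fold change 0.45), an Sm gene whose groups overlapped, to set motif content beside the values. No match was found in the printed Lsm3 window, nor in the windows of Prmt5 and Prpf8, which are not printed. Each run gives the 150 bases before the RefSeq start (GRCm38.p6), 5′ to 3′ on the gene's strand. Capitals mark the letters CCGGAAG or CGGAAGT, which ETS factors are known to bind on either strand.
Snrpg, chr6:86371390-86371539, plus strand: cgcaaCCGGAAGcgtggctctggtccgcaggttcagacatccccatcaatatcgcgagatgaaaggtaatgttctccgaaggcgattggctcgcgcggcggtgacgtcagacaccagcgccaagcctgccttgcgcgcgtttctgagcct
Snrpe, chr1:133610281-133610430, minus strand: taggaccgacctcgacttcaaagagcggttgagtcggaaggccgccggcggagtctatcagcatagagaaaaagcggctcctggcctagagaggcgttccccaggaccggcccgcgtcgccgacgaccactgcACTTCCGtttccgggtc
Lsm3, chr6:91515885-91516034, plus strand: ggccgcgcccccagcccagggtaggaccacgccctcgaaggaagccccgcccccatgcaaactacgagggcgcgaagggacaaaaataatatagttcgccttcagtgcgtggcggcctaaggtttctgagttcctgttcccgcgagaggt

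Of the 40 members 36 matched the RefSeq promoter table, which also holds genes that were not among the 12769 tested. Shares over the tested genes alone are not given. Within 250 bases before a start, on both strands, CCGGAAG was found in 11 of the 36 (30.6%), against 7.83% of all 27025 genes in the table. CGGAAGT, which can overlap it, was found in 6 (16.7%, against 5.58%). The GC box GGGCGG was found in 22 (61.1%, against 35.4%). The E-box CACGTG was found in 3 (8.33%, against 6.86%), the CCAAT box on its other strand, ATTGG, in 12 (33.3%, against 37.5%) and TATAAA in 3 (8.33%, against 14.3%). The letters were chosen from general knowledge with the values known, and the members with CCGGAAG included genes with estimates on both sides of 0, such as Snrpg (1.02) and Gemin8 (-0.39).

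**Figure D4:**
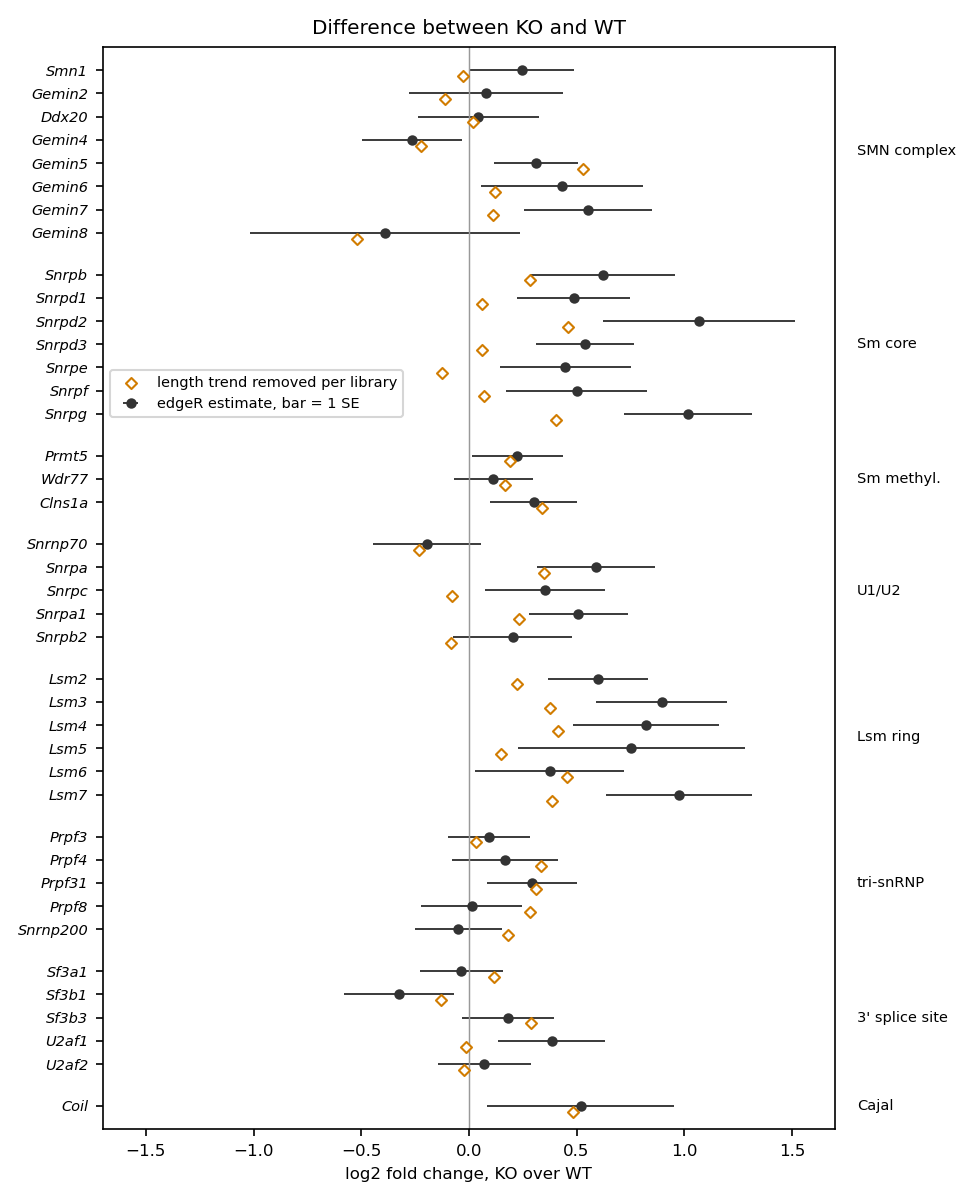
Log2 fold change of KO over WT for each member, by class. Black points are the edgeR estimates with bars of 1 SE, and open orange diamonds are the estimates with the length trend removed from each library. The diamonds of the Sm core lie between -0.13 and 0.46, and the points between 0.45 and 1.07.

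The 5 genes of U1 and U2 proteins had a median of 0.35 on the log2 scale. Snrpa1, a U2 protein gene, stood at 38.1 and 30.5 CPM in KO, against 25.7 and 22.5 CPM in WT, with an estimate of 0.51 (SE 0.23, adjusted p = 0.348, edgeR). Its ratio was 0.57 between the libraries numbered 1 and 0.44 between those numbered 2. Each KO library thus exceeded the same-numbered WT library by a similar amount. Snrpa, a U1 protein gene, was at 113 and 83.6 CPM in KO and 52.8 and 77.7 CPM in WT (0.59, SE 0.27, adjusted p = 0.36, edgeR). Snrpc, another U1 protein gene, was at 66.0 and 45.8 CPM in KO and 36.3 and 51.2 CPM in WT (0.35, SE 0.28) and overlapped, as did the U2 protein gene Snrpb2 (0.20, SE 0.28).

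Snrnp70, the gene of the U1 protein that contacts SR proteins, was the class member with an estimate below 0. It was at 160.4 and 228 CPM in KO, against 232 and 212 CPM in WT (-0.19, SE 0.25, adjusted p = 0.735, edgeR), so KO replicate 1 alone was low. The tables list 3 transcripts for Snrnp70, 2 of them non-coding, and give a gene length that varies between libraries where a gene has several transcripts. That length was 1981 and 2922 bases in KO and 2691 and 2728 bases in WT. Per length, Snrnp70 stood at 78.0 and 83.0 FPKM in KO and 89.0 and 80.4 FPKM in WT, a closer range than in CPM. Of the 40 members 29 had the same length in all 4 libraries, and Snrnp70 had the widest range.

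None of the 5 tri-snRNP genes passed the threshold. Prpf8, which encodes the scaffold at the catalytic centre, had the highest counts of the class, 4526 and 5404 in KO and 5519 and 4883 in WT. It stood at 309 and 368 CPM in KO, against 354 and 317 CPM in WT, with a log2 fold change of 0.01 (SE 0.23), and its sign changed between scalings. Snrnp200, the gene of the helicase that unwinds U4 from U6, had -0.05 (SE 0.20). Prpf31, a U4/U6 protein gene, was at 47.4 and 41.2 CPM in KO and 33.1 and 39.2 CPM in WT (0.29, SE 0.21, adjusted p = 0.524, edgeR). Prpf3 stood at 39.3 and 39.3 CPM in KO and 35.4 and 38.2 CPM in WT (0.09, SE 0.19), and Prpf4 at 38.1 and 31.5 CPM in KO and 26.2 and 35.8 CPM in WT (0.17, SE 0.25). The class median was 0.09, and 0.28 with the length trend removed.

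No branch point or 3′ splice site gene passed the threshold. Sf3b1, whose product holds the branch point and which is a known target of mutation in human leukaemias, was at 229 and 313 CPM in KO, against 353 and 326 CPM in WT. The groups did not overlap, KO replicate 1 was the lowest library, and the estimate was -0.32 (SE 0.25, adjusted p = 0.563, edgeR). Between the libraries numbered 2 the ratio was -0.06. Its complex partner Sf3b3 had 162 and 196 CPM in KO and 166 and 150 CPM in WT (0.18, SE 0.22), and Sf3a1 had an estimate of -0.04 (SE 0.19). U2af1, which encodes the subunit that reads the AG of the 3′ splice site, was at 78.4 and 53.2 CPM in KO and 47.2 and 53.6 CPM in WT (0.38, SE 0.25, adjusted p = 0.49, edgeR). Its partner U2af2, which binds the polypyrimidine tract, had 0.07 (SE 0.22).

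Coil, the gene of coilin, the scaffold of Cajal bodies where small nuclear RNPs mature, had few counts, 117 and 107 in KO and 62 and 103 in WT. It stood at 7.99 and 7.29 CPM in KO, against 3.98 and 6.68 CPM in WT (0.52, SE 0.43, adjusted p = 0.585, edgeR). The groups did not overlap, and WT replicate 1 was the low library. Without WT replicate 1 the estimate was 0.18.

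Other genes of splicing, 118 in 11 lists, showed the same lack of calls. Of these 0 were called over all genes in either direction by edgeR or DESeq2. At an unadjusted p under 0.05, 4 were higher (3.39%) and 0 lower, against 7.08% and 8.69% of all tested genes. The 4 at that p were Ncbp2, Snrpn, Nhp2l1 and Bud31, of which Bud31 has a transcript of 877 bases. The median log2 fold change was 0.15, and 0.10 with the length trend removed. In the main fit 81 were above 0 (68.6%, against 50.3% of all tested genes). In 46 of them (39.0%, against 25.5% of all tested genes) KO exceeded WT in every pairing of libraries. KO was under WT in every pairing in 14 (11.9%, against 24.6%).

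Genes of the cap, export and import of small nuclear RNAs were above 0 in 8 of 9 cases, with a median of 0.21. Ncbp2, the small subunit gene of the nuclear cap-binding complex, was at 33.1 and 28.3 CPM in KO, against 14.1 and 21.6 CPM in WT (0.78, SE 0.29, adjusted p = 0.291, edgeR), and the transport GTPase gene Ran had 0.56. Among other Sm and Lsm genes 4 of 8 were above 0. Snrpn is the imprinted paralogue of Snrpb. It was at 25.8 and 37.7 CPM in KO, against 13.2 and 17.7 CPM in WT (1.04, SE 0.30, adjusted p = 0.238, edgeR). Lsm8, a member of the nuclear Lsm ring and not of the cytoplasmic one, had 0.62. Snrpn differed from the Sm core in that KO replicate 2, not KO replicate 1, was its highest library. Other arginine methyltransferase genes and cofactors had 5 of 6 above 0, led by Prmt7 (0.40) and Prmt6 (0.31).

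Among the lists of spliceosome parts, the exon junction list had the highest median and the Prp19 list the lowest. Other SF3 and U2 genes had a median of 0.15 over 13, with Sf3b5 at 0.80 and Sf3b6 at 0.61. Other tri-snRNP genes had a median of 0.24 over 14, with Nhp2l1, which encodes the U4 protein also called Snu13, at 0.64 and Usp39 at 0.45. The Prp19 group had 0.04 over 14, with Bud31 at 0.68 and Isy1 at 0.50, and spliceosomal helicases 0.06 over 7, with Dhx38 at 0.38 and Ddx41 at 0.43. Minor spliceosome genes had 0.37 over 8 (Zrsr2 0.42, Zcrb1 0.42) and exon junction genes 0.46 over 8 (Rnps1 0.49, Rbm8a 0.63). Among splicing regulators, SR protein and kinase genes had 0.18 over 16, with Srsf3 at 0.42, and hnRNP genes had 0.02 over 15, with Hnrnpc at 0.50 and Hnrnpa2b1 at 0.39. Clk1, a kinase gene that acts on SR proteins, was at 84.0 and 129 CPM in KO, against 162 and 156 CPM in WT (-0.58, SE 0.26, adjusted p = 0.35, edgeR). The adjusted p of every gene named from these lists was at least 0.238 in edgeR.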

How the data were processed

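RNA of 4 adenoma libraries was analysed, 2 of Strap KO and 2 of Strap WT. Per the submitters' processing notes, Bowtie2 2.2.5, RSEM 1.2.12 and mm10 were used, with no role or order given. The deposited tables hold RSEM-style expected counts, per the file headers. They also hold FPKM, which divides by gene length and depth, per the file headers. No source used states strandedness, so reads of overlapping genes cannot be told apart. A single row naming no gene was dropped per table (at most 0.000233% of counts).

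Tables were joined on Entrez identifiers (pandas 2.3.3), and expected counts were rounded to whole numbers. KO over WT was tested with glmQLFTest of edgeR 4.0.16 (R 4.3.3), modelling genotype alone, with TMM scaling, filterByExpr and Benjamini-Hochberg adjustment over 12769 genes, at 0.05. CPM uses TMM factors (0.937 to 1.04). Each SE is the log2 fold change divided by the root of its F. With 2 libraries a group, an exact permutation test cannot go below 0.333. Replicates differed more than counting noise, as chi-square over degrees of freedom was 66.1 for the KO pair and 132 for the WT pair. The procedure was run on simulated counts that held no length trend, and the outcome is not given here. Alternatives used DESeq2 1.42.0 and limma 3.58.1 on log2(FPKM + 1) and log2(FPKM + 0.1).

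The members and lists were chosen with earlier results of these data known. Full values go to Smn1, Snrpb, Prmt5, Prpf8, Sf3b1, Coil and the 3 genes with the smallest p of each class. Of each other list the 2 with the smallest p are named. Gemin4, Snrnp70, Gemin8 and Lsm5 were given in full, and Lsm4 and the Snrnp70 lengths described, after their values were seen.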

Additional observations from a re-analysis of the deposited data

How the results depend on the processing

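No member was called under any of the 14 alternatives, and 25 of the 40 kept direction and side of the threshold in every one. Over all genes, 1 was called higher, the interferon-induced gene Ifi44, and 0 lower. The counts were 19 and 8 with no filter, 233 and 424 with DESeq2, and 0 and 0 with library size alone, with either limma fit and with the length trend removed. Leaving out 1 library, which assumes that the lone library left in its group varies like the other group, gave 0 to 72 higher (72 without WT replicate 2) and 0 to 300 lower (300 without WT replicate 2). The labels do not say what a replicate number marks. Same-numbered libraries were alike in Xist and Y-linked genes, but over all genes their deviations from the group means correlated at -0.13. The main test therefore did not pair libraries by number, and ratios between same-numbered libraries are given as description alone. A replicate block called 46 and 70, a crossed replicate block, chosen after seeing the data, 65 and 99. Strap passed the threshold with no filter (-2.55, adjusted p = 0.0382), DESeq2 (-2.58, 8.17e-14), the replicate block (-2.55, 0.0112), the crossed one (-2.55, 0.00908) and without WT replicate 2 (0.00512; edgeR), ranging from -2.77 to -2.32 over the left-out libraries.

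Members higher at an unadjusted p under 0.05 numbered 0 to 10 over the left-out libraries, 1 with the length trend removed, 3 with the replicate block (4.84% of all genes) and 9 with the crossed replicate block (9.64% of all genes). With the length trend removed the class medians were -0.0052 for the SMN complex, 0.071 for the Sm core, -0.080 for U1 and U2 proteins, 0.28 for the tri-snRNP and -0.012 for the 3′ splice site. Over the left-out libraries they ranged from 0.14 to 0.30 for the SMN complex, 0.15 to 0.86 for the Sm core, 0.36 to 1.23 for the Lsm ring, 0.11 to 0.29 for Sm methylation, 0.074 to 0.59 for U1 and U2 proteins, 0.025 to 0.17 for the tri-snRNP, 0.001 to 0.13 for the 3′ splice site and 0.18 to 0.96 for Coil. Removing the length trend turned the sign of Smn1 (-0.029), Gemin2 (-0.11), Snrpe (-0.13), Snrpc (-0.080), Snrpb2 (-0.085), Snrnp200 (0.18), Sf3a1 (0.12), U2af1 (-0.012) and U2af2 (-0.024). Prpf8 turned with DESeq2 size factors (-0.0018), library size alone (-0.012), a minimum of 50 counts in 2 libraries (-0.021), DESeq2 (-0.0019), limma on log2(FPKM + 1) (-0.022) and on log2(FPKM + 0.1) (-0.023). Leaving out 1 library turned Gemin2 (-0.087 to 0.23), Ddx20 (-0.16 to 0.24), Gemin8 (-0.87 to 0.31), Snrpe (-0.0091 to 0.80), Snrnp70 (-0.47 to 0.045), Snrpb2 (-0.12 to 0.47), Lsm5 (-0.017 to 1.25), Prpf4 (-0.057 to 0.43), Prpf8 (-0.12 to 0.14), Snrnp200 (-0.17 to 0.071), Sf3a1 (-0.11 to 0.037) and U2af2 (-0.072 to 0.23). The cause was not tested. Gemin8 left the test at 50 counts. With 2 libraries a group and a biological coefficient of variation of 32.5%, small differences were not detectable. Large ones could be missed as well: Strap, at a log2 fold change of -2.57, had an adjusted p of 0.0942 in edgeR.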

Other observations

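The gene length in the deposited tables gave a readout beside the levels. It was the same in all 4 libraries for each of the 12579 genes with 1 transcript, and differed between libraries for 4075 of the 5183 with several, so that it follows the mix of transcripts. Of the 11 members and other splicing genes with a non-coding transcript, KO replicate 1 had the lowest length of the 4 libraries in 6 (Snrnp70, Prmt1, Sf1, Srsf3, Srsf7 and Clk1), the highest in 2 (Dhx15 and Hnrnpa1) and neither in 3 (Prmt6, Srsf9 and Hnrnpa2b1). The genes given here were chosen after the values were seen. Clk1 stood at 1967 and 2340 bases in KO, against 2406 and 2355 bases in WT. Srsf3 stood at 2624 and 2703 bases in KO and 2727 and 2717 bases in WT, and Srsf7 at 2379 and 2513 bases in KO and 2570 and 2512 bases in WT. Hnrnpa1 stood at 1777 and 1717 bases in KO and 1724 and 1734 bases in WT. In Hnrnpa3, which has 3 coding transcripts, KO replicate 1 also had the highest value, with 5178 and 4669 bases in KO and 4434 and 4607 bases in WT. Some differences were slight: Dhx15 stood at 3060.6 bases in KO replicate 1 and 3060.54 bases in WT replicate 2. Prmt1 stood at 1331.47 bases in KO replicate 1 and 1333.3 bases in WT replicate 1. No test was run on these lengths. The same tally over all genes with several transcripts is not given here, so the counts have no background beside them.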
